A study of Mus musculus with 6 samples.

Results

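The genes described here encode 35 lysosomal proteins, and all 35 were among the 34199 gene symbols counted in each library. They were taken from a list of names by function, with no threshold on a measured value. By role they comprise 9 proteases, 12 glycosidases and sulfatases, 7 proteins of lipid breakdown and transfer, 5 membrane proteins, and Tfeb with Grn as a transcriptional regulator and a secreted cofactor. They were measured by bulk RNA-seq in immortalized granulocyte-macrophage progenitors (iGMPs), C57Bl/6 mouse bone marrow cells with a Lys-GFP reporter that carry HOXA9 fused to an estrogen receptor ligand-binding domain. The comparison asks how far the lysosomal genes, a sign of phagocyte maturation, had moved after 24 h in each condition. All cells grew in medium with stem cell factor, and each of the 3 groups held 2 libraries. The control cells were labelled as IPTG treated and kept estradiol at 150 ng/ml. The CAF-1 OFF cells also kept estradiol and received 500 µM IPTG, which switches on a short hairpin RNA against Chaf1b, part of the histone chaperone complex CAF-1. The HOXA9 OFF cells were washed and cultured without estradiol, which turns the HOXA9 fusion off, and whether they received IPTG is not given in the labels. In the study such hairpin lines were clonal, so a line stands for a clone. The study mentions independent sub-clones for RNA-seq at a later time, but the labels do not say whether the libraries of a group used here came from separate cultures or sub-clones, so the p-values below measure the spread between these libraries, which may be technical.

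Lysosomes are acidic organelles in which hydrolases break down protein, glycan and lipid delivered by endocytosis, phagocytosis and autophagy. Most hydrolases reach the lysosome through a mannose 6-phosphate tag, the membrane holds a dense coat of glycosylated proteins such as LAMP1 and LAMP2, and the V-ATPase pumps in protons. TFEB and its relatives TFE3, MITF and TFEC are basic helix-loop-helix factors that bind the palindrome CACGTG, whose extended form in lysosomal promoters is known as the CLEAR element. Macrophages are rich in lysosomes, and neutrophils store part of their hydrolases in granules.

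The promoter letters that this background points to were looked up because they are what the genes could share beyond their function. RefSeq promoter windows of the GRCm38.p6 build, running from 250 bases before to 50 bases after the start, were at hand for 30 of the 35 genes. Ctsb, Ctsh, Galns, Npc1 and Asah1 had no entry. Each motif searched reads the same on both strands, and TCACGTGA contains CACGTG. The shorter motif occurred in 10 of the 30 promoters (33.3%), beside 8.09% of 27025 genes with a promoter window. Among the 17491 protein-coding genes with a window, the kind to which all 35 belong, it occurred in 8.91%. TCACGTGA occurred in 4 of the 30 (13.3%), beside 1.12% of all genes and 1.41% of the protein-coding ones. Its 10-letter extension, with a G before it and a C after it, occurred in 0 of the 30, beside 0.37% of all genes and 0.469% of the protein-coding ones. The 4 promoters with TCACGTGA belong to Ctsa, Ctsd, Gla and Mcoln1, with 2 copies each in Ctsa and Gla. Lamp1 held 4 copies of CACGTG. These windows are shown because they hold the longest match found or the most copies, with the motif in capitals and the gene's strand read 5′ to 3′.
Ctsa, chr2:164833749-164833778 (+): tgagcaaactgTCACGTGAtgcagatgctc
Ctsa, chr2:164833766-164833795 (+): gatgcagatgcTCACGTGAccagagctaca
Ctsd, chr7:142387908-142387937 (-): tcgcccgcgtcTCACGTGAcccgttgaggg
Gla, chrX:134601215-134601244 (-): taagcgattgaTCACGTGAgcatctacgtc
Gla, chrX:134601182-134601211 (-): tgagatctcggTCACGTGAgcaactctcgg
Mcoln1, chr8:3500462-3500491 (+): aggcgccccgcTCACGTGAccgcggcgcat
Lamp1, chr8:13159088-13159117 (+): agggcaagatatCACGTGgtccagcgccca
Lamp1, chr8:13159104-13159133 (+): tggtccagcgccCACGTGatgccgactggc
Lamp1, chr8:13159121-13159150 (+): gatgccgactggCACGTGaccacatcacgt
Lamp1, chr8:13159134-13159163 (+): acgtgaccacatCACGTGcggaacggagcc

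The remaining promoters with CACGTG were those of Arsa, Ctsl, Gaa, Glb1 and Lgmn. A match in these windows is a run of letters and no measurement of binding.

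Library depth ran from 16773560 to 25170898 reads assigned to genes, so 3 counts corresponded to 0.119 to 0.179 CPM (counts per 1000000 reads assigned to genes). The target of the hairpin fell, with Chaf1b at 90.0 and 105 CPM in control, 17.8 and 12.1 CPM in CAF-1 OFF, and 64.6 and 61.4 CPM in HOXA9 OFF. Of 8 progenitor markers, Kit, Cd34, Flt3 and Ctsg were called lower in HOXA9 OFF than in control, Ms4a3 was called higher, and 0 were called in CAF-1 OFF. Of all genes, 8.97% were called lower and 13% higher in HOXA9 OFF, and 0.00803% lower and 0.0241% higher in CAF-1 OFF. Kit stood at 262 to 810.1 CPM over all libraries, with a log2 fold change of -1.16 in HOXA9 OFF (FDR = 0.00366). The progenitor markers summed to 11518 to 14614 CPM in control cells, 15665 to 17330.5 CPM after CAF-1 depletion and 11896 to 15104 CPM in HOXA9 OFF. Of 9 neutrophil markers tested, 8 were called higher in HOXA9 OFF than in control and 0 in CAF-1 OFF. In CAF-1 OFF all 9 log2 fold changes lay above 0, beside 49.2% of all genes, with a median of 1.55, and 5 were higher at an unadjusted p under 0.05 in edgeR's quasi-likelihood test, beside 6.48% of all genes. The 10 markers counted summed to 101 to 110.1 CPM in control cells, 437 to 699 CPM after CAF-1 depletion and 473 to 848 CPM in HOXA9 OFF. Mmp8 alone made up 332 and 630.2 CPM of the CAF-1 OFF sums, and without it the other 9 markers summed to 40.0 and 60.7 CPM in control, 104 and 68.9 CPM in CAF-1 OFF, and 791 and 411 CPM in HOXA9 OFF. Of 10 monocyte and macrophage markers 5 could be tested, and in HOXA9 OFF Csf1r, Emr1 and Cx3cr1 were called higher and Ccr2 lower, with summed levels of 394 to 564 CPM in control cells, 411 to 548 CPM after CAF-1 depletion and 481 to 685 CPM in HOXA9 OFF. C1qa had 0 counts in every library but HOXA9 OFF library 2, where it stood at 0.243 CPM. Of 8 mast cell, basophil and eosinophil markers tested, Prg2 and Epx were called higher in HOXA9 OFF, and the summed level was 753 to 1149 CPM in control cells, 1216 to 1743 CPM after CAF-1 depletion and 4007 to 5414 CPM in HOXA9 OFF. Between the HOXA9 OFF libraries, 6 of the 10 monocyte and macrophage markers were higher in library 2 and 3 were lower. C1qb stood at 17.6 CPM in library 2 against 0.145 in library 1 and C1qc at 6.00 against 0.0482, whereas Emr1 stood at 148 against 179.7 and Cx3cr1 at 8.55 against 17.4. Gpnmb, a membrane glycoprotein of another list, stood at 104 against 3.67 CPM. Of 5 megakaryocyte and erythroid markers tested, only Itga2b was called higher in HOXA9 OFF, at 1.80 ± 0.33 (FDR = 0.00847). Against control, 4 of the 5 log2 fold changes lay above 0 in HOXA9 OFF (median 0.36, minimum -1.19). In CAF-1 OFF 0 were called, but all 5 lay above 0 (median 0.76), 2 at an unadjusted p under 0.05 in edgeR's quasi-likelihood test. With these groups compared directly, CAF-1 OFF had the larger value for 4 markers and HOXA9 OFF for Itga2b, with 0 called. The 8 counted summed to 25.9 and 30.7 CPM in control, 78.1 and 37.4 in CAF-1 OFF, and 67.4 and 77.9 in HOXA9 OFF. Of 2 dendritic cell markers tested 0 were called in HOXA9 OFF, and the 6 counted summed to at most 5.88 CPM in any library. The part of these cell type markers in the lysosomal results was not tested. In bulk RNA, a change in how many cells express a gene and a change in RNA per cell cannot be told apart.

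In the control cells the lysosomal genes spanned a wide range of levels. Per kilobase of exon, a scale that allows genes to be compared, Ctsd, the aspartic protease cathepsin D, stood at 310.2 ± 30.5 CPM per kb (mean ± SD, n = 2) and the tetraspanin gene Cd63 at 306 ± 26.8. These neighbours did not differ beyond their spread. Ctsz followed at 259 ± 42.5 and Psap at 201 ± 23.3. At the other end, Tfeb stood at 1.72 ± 0.159, Ctss at 0.859 ± 0.478 and Ctsh at 0.0284 ± 0.0402 CPM per kb. In CAF-1 OFF the first 4 and the last 6 places of the order were held by the same genes as in control. In HOXA9 OFF Psap moved from place 4 to place 1, at 895 ± 317 CPM per kb beside 718 ± 336 for Ctsd, 2 values that overlap within their spread. Ctss moved from place 34 to place 19, at 42.3 ± 14.5 CPM per kb.

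**Figure D1:**
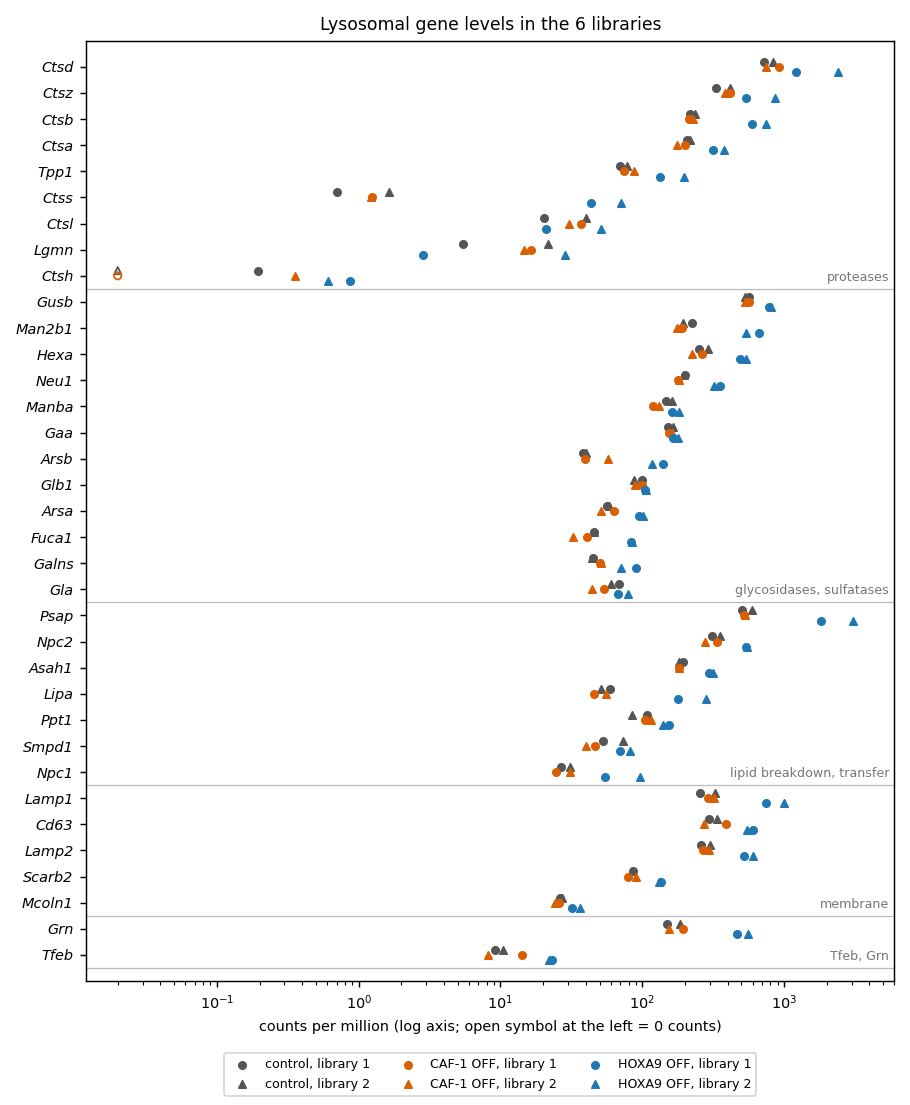
Level of each lysosomal gene in CPM (log axis) in the 6 libraries, grouped by role. The HOXA9 OFF libraries lie to the right of both controls for 30 of the 35 genes, while the CAF-1 OFF symbols lie among or near the controls.

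The lysosomal genes were broadly higher in HOXA9 OFF than in control. The labels give neither the clone of each group nor whether HOXA9 OFF cells received IPTG. These cannot be told apart from estradiol withdrawal. In HOXA9 OFF against control, 25 of the 35 genes were called higher and 0 lower, where a call means a change of at least 1.5-fold and a false discovery rate (FDR, Benjamini-Hochberg) under 0.05 in edgeR's quasi-likelihood test over 12460 genes. Of all genes tested, 13% were called higher and 8.97% lower. Every one of the 35 log2 fold changes lay above 0, beside 49.8% of all genes, and their median was 0.86 beside -0.0035 for all genes. For 2 uncalled genes the direction turned when a library was left out, to -0.52 for Ctsl and -2.24 for Lgmn without HOXA9 OFF library 2, and to -0.15 and -0.48 without control library 1. Both HOXA9 OFF libraries lay above both controls for 30 of the 35, beside 35.1% of all genes. By DESeq2 and by edgeR's exact test the count was again 25, beside 13.5% and 14.3% of all genes called higher. Without HOXA9 OFF library 2 the median log2 fold change was 0.84.

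The summed level of the 35 genes was 5805 and 6357 CPM in control, 6241 and 5786 CPM in CAF-1 OFF, and 11719 and 15303 CPM in HOXA9 OFF. The HOXA9 OFF mean was therefore 2.22 times that of control, with no overlap, and the CAF-1 OFF mean 0.989 times. The 3 genes with the most reads, Psap, Ctsd and Gusb, did not carry this alone, since without them the ratio was 2.01 for HOXA9 OFF and 0.976 for CAF-1 OFF. As a share of all reads assigned to genes, the 35 took 0.587% and 0.653% in control, 0.63% and 0.592% in CAF-1 OFF, and 1.12% and 1.49% in HOXA9 OFF.

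**Figure D2:**
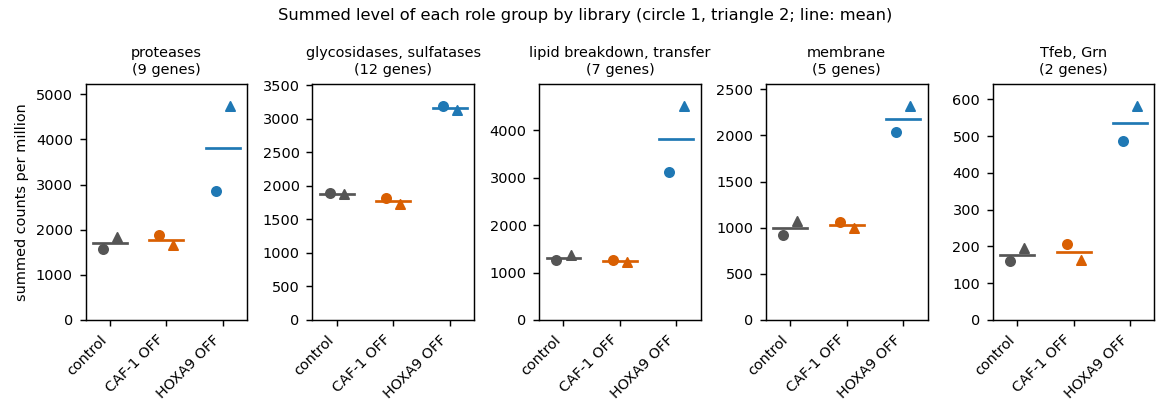
Summed level of the genes of each role in CPM, by library, with the group mean as a line and axes starting at 0. In all 5 roles the HOXA9 OFF libraries lie above the control and CAF-1 OFF libraries, and the protease and lipid sums differ most between the HOXA9 OFF libraries, at 2869 and 4745 CPM and at 3129 and 4520 CPM.

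Among the proteases, 6 of 9 were called higher in HOXA9 OFF. Ctss encodes cathepsin S, a cysteine protease that cleaves the invariant chain in antigen-presenting cells, and it lies at chr3:95330708-95360325 on the plus strand of NCBIM37 (mm9). Its level was 0.707 and 1.63 CPM in control (18 and 28 counts), 1.25 and 1.22 CPM in CAF-1 OFF, and 43.6 and 71.4 CPM in HOXA9 OFF. The HOXA9 OFF libraries were far above all others, with a log2 fold change of 5.68 ± 0.41 (SE, FDR = 0.000493), the largest among the 35 genes. It was 5.13 without control library 1 and 6.33 without control library 2, and stayed called. Ctsb, which encodes the cysteine protease cathepsin B, had 217 and 237 CPM in control, 214 and 228 CPM in CAF-1 OFF, and 597 and 749 CPM in HOXA9 OFF. It rose by 1.57 ± 0.14 on the log2 scale (FDR = 0.000801), and the HOXA9 OFF libraries did not overlap the rest.

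Ctsd, which held the highest protease level, had 727 and 836 CPM in control, 927 and 743 CPM in CAF-1 OFF, and 1211 and 2407 CPM in HOXA9 OFF. Both HOXA9 OFF libraries exceeded the others, but they differed 1.99-fold from each other. The log2 fold change was 1.21 ± 0.30 (FDR = 0.0249), and without HOXA9 OFF library 2 it was 0.63 and no longer called (FDR = 0.059). The call was lost without either control library as well. Tpp1, the tripeptidyl peptidase deficient in a neuronal ceroid lipofuscinosis, had 69.3 and 78.5 CPM in control, 74.6 and 88.0 CPM in CAF-1 OFF, and 133 and 197 CPM in HOXA9 OFF, a log2 fold change of 1.16 ± 0.20 (FDR = 0.00681). Here too the HOXA9 OFF libraries were the highest pair. Ctsz, a carboxypeptidase, and Ctsa, the protective protein of neuraminidase and beta-galactosidase, were also called higher, with log2 fold changes of 0.91 ± 0.23 and 0.72 ± 0.13. Ctsz lost its call without HOXA9 OFF library 2 or either control library.

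The other 3 proteases were not called. Ctsh, an aminopeptidase, was barely detected, with 5 and 0 counts in control, 0 and 7 in CAF-1 OFF, and 18 and 10 in HOXA9 OFF, at most 0.868 CPM. Its log2 fold change in HOXA9 OFF was 2.66 ± 1.22 (FDR = 0.146). Ctsl, the cysteine protease cathepsin L, and Lgmn, the asparaginyl endopeptidase that processes other cathepsins, were spread widely within groups. Ctsl had 20.3 and 39.8 CPM in control, 36.9 and 30.6 CPM in CAF-1 OFF, and 20.9 and 51.5 CPM in HOXA9 OFF. Lgmn had 5.42 and 21.7 CPM in control, 16.4 and 14.6 CPM in CAF-1 OFF, and 2.85 and 28.7 CPM in HOXA9 OFF. In both genes library 2 was higher than library 1 in control and in HOXA9 OFF, and the groups overlapped.

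Among the glycosidases and sulfatases, 7 of 12 were called higher in HOXA9 OFF. Arsb encodes arylsulfatase B, which acts on dermatan sulfate, and had 37.9 and 40.0 CPM in control, 39.4 and 57.2 CPM in CAF-1 OFF, and 140 and 118 CPM in HOXA9 OFF. Its log2 fold change was 1.73 ± 0.19 (FDR = 0.00169), and the HOXA9 OFF libraries lay above all others. Man2b1, the lysosomal alpha-mannosidase, had 223 and 194 CPM in control, 191 and 175 CPM in CAF-1 OFF, and 664 and 539 CPM in HOXA9 OFF, a log2 fold change of 1.53 ± 0.14 (FDR = 0.000946). In both genes library 1 was the higher of the HOXA9 OFF pair, the opposite order to Ctsd and Ctss.

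Fuca1, the alpha-fucosidase, had 45.8 and 45.7 CPM in control, 40.7 and 32.5 CPM in CAF-1 OFF, and 83.0 and 84.0 CPM in HOXA9 OFF. Its log2 fold change was 0.87 ± 0.13 (FDR = 0.00447), with the HOXA9 OFF libraries nearly equal. The remaining calls were Hexa, the alpha chain of beta-hexosaminidase, Galns, a sulfatase of keratan sulfate, Neu1, the neuraminidase, and Arsa, the sulfatide sulfatase, with log2 fold changes of 0.94, 0.84, 0.77 and 0.78.

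The uncalled members of this role changed less. Gusb, beta-glucuronidase, rose in both HOXA9 OFF libraries, to 778 and 811 CPM from 564 and 527 CPM in control, but its log2 fold change of 0.54 ± 0.10 (FDR = 0.00768) stayed under the 1.5-fold minimum. Gaa, the acid alpha-glucosidase, had the smallest log2 fold change of all, 0.11 ± 0.10, with 153 and 166 CPM in control and 164 and 180.1 CPM in HOXA9 OFF. For Gla, the alpha-galactosidase, Glb1, the beta-galactosidase, and Manba, the beta-mannosidase, the log2 fold changes were 0.18, 0.16 and 0.16, and their 95% intervals reached at most 0.54. The summed level of this role was the steadiest between the HOXA9 OFF libraries, at 3193 and 3135 CPM, against 1889 and 1873 CPM in control.

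Among the genes of lipid breakdown and transfer, 6 of 7 were called higher. Psap encodes prosaposin, the precursor of the saposins that present sphingolipids to their hydrolases, and lies at chr10:59740375-59765345 on the plus strand of NCBIM37. It had 504 and 594 CPM in control, 525 and 535 CPM in CAF-1 OFF, and 1829.8 and 3053 CPM in HOXA9 OFF. The log2 fold change was 2.15 ± 0.24 (FDR = 0.00165), and the HOXA9 OFF libraries lay far above the rest, 1.67-fold apart. Lipa, the acid lipase that frees cholesterol from its esters, had 58.8 and 51.4 CPM in control, 46.0 and 55.4 CPM in CAF-1 OFF, and 179 and 283 CPM in HOXA9 OFF, a log2 fold change of 2.07 ± 0.23 (FDR = 0.00169). Its groups separated in the same way.

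Npc1, the membrane protein that moves cholesterol out of the lysosome, had 26.9 and 30.9 CPM in control, 24.6 and 30.8 CPM in CAF-1 OFF, and 54.3 and 96.7 CPM in HOXA9 OFF. The log2 fold change was 1.38 ± 0.27 (FDR = 0.0111), lost as a call only without control library 1, at 1.28. Its soluble partner Npc2 was called at 0.72 ± 0.13, Asah1, the acid ceramidase, at 0.71 ± 0.10, and Ppt1, the palmitoyl thioesterase, at 0.61 ± 0.14. Smpd1, the acid sphingomyelinase, was not called, with 53.2 and 73.2 CPM in control, 46.4 and 40.3 CPM in CAF-1 OFF, and 69.2 and 81.9 CPM in HOXA9 OFF. Its control and HOXA9 OFF values overlapped.

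Of the membrane proteins, 4 of 5 were called higher. Lamp1 had 256 and 326 CPM in control, 293 and 319 CPM in CAF-1 OFF, and 750.5 and 999.9 CPM in HOXA9 OFF, a log2 fold change of 1.59 ± 0.18 (FDR = 0.00174). Lamp2 had 261 and 301 CPM in control, 269 and 295 CPM in CAF-1 OFF, and 524 and 605 CPM in HOXA9 OFF, a log2 fold change of 1.01 ± 0.12 (FDR = 0.0023). For both, the HOXA9 OFF libraries lay above all 4 others, and the control and CAF-1 OFF libraries were interleaved. Cd63 and Scarb2, the receptor that carries beta-glucocerebrosidase, were called at 0.86 ± 0.18 and 0.63 ± 0.11. Mcoln1, the lysosomal calcium channel, had 26.1 and 27.3 CPM in control and 32.1 and 36.5 CPM in HOXA9 OFF. The libraries of Mcoln1 did not overlap between these groups, but its log2 fold change of 0.36 ± 0.13 (FDR = 0.0766) was not called.

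Grn encodes progranulin, a secreted protein that is cut into granulins in the lysosome. It had 150.5 and 186 CPM in control, 193 and 154 CPM in CAF-1 OFF, and 463 and 560.2 CPM in HOXA9 OFF, a log2 fold change of 1.61 ± 0.17 (FDR = 0.00151). Its control and CAF-1 OFF libraries overlapped, and both HOXA9 OFF libraries were above them. Tfeb, the regulator, had 9.11 and 10.4 CPM in control, 14.1 and 8.15 CPM in CAF-1 OFF, and 23.3 and 22.1 CPM in HOXA9 OFF. Its log2 fold change of 1.22 ± 0.26 was called (FDR = 0.0155), but not when any single control or HOXA9 OFF library was left out, with values of 1.12 to 1.31. Leaving out each library in turn, 18 of the 25 genes kept their call throughout, and Cd63, Ctsd, Ctsz, Npc1, Npc2, Ppt1 and Tfeb lost it at least once.

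**Figure D3:**
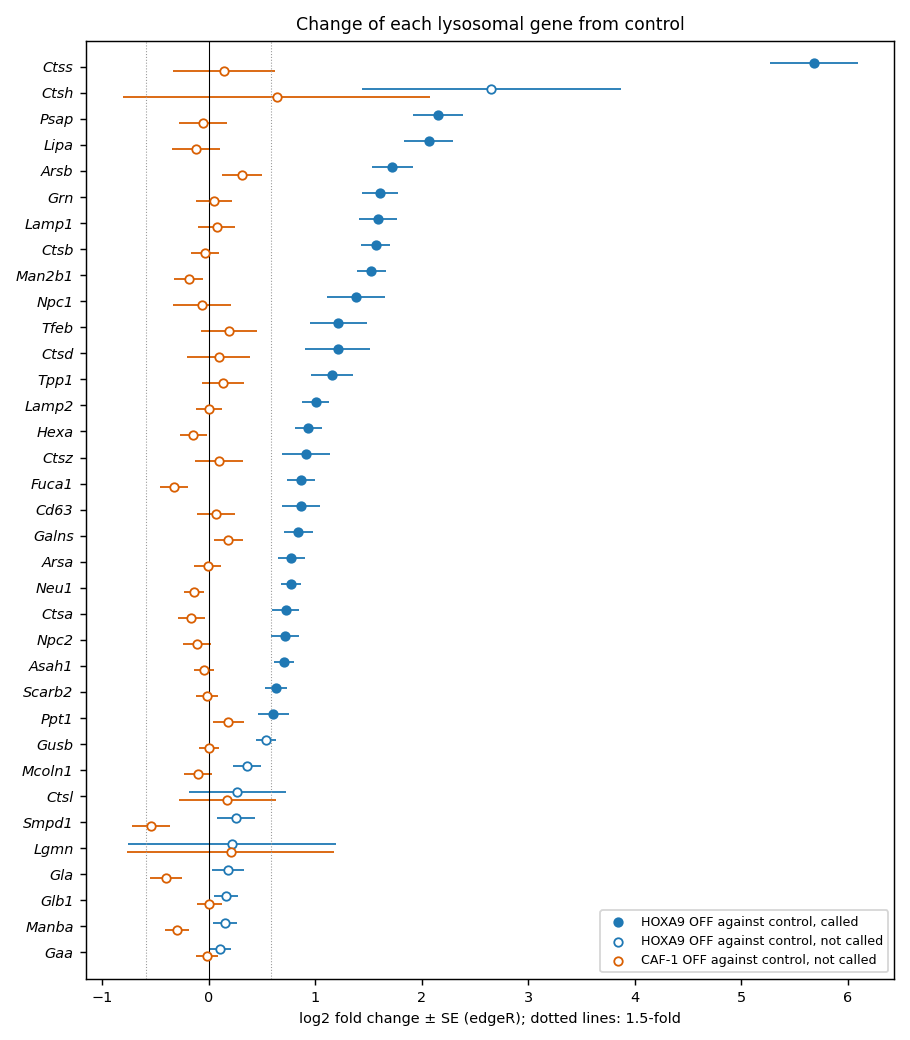
Log2 fold change ± SE of each lysosomal gene from control in HOXA9 OFF (blue) and CAF-1 OFF (orange), with filled symbols for genes called and dotted lines at 1.5-fold. All 35 blue symbols lie above 0, from 0.11 for Gaa to 5.68 for Ctss, while the orange symbols lie on both sides of 0 and none is filled.

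Depletion of CAF-1 was not accompanied by a called change in any lysosomal gene at 24 h. In CAF-1 OFF against control, 0 of the 35 genes were called by edgeR's quasi-likelihood test, and 0 by DESeq2 and by edgeR's exact test. Few genes of any kind were called in this comparison, 0.0241% of those tested higher and 0.00803% lower, so the count of 0 is near the background. By DESeq2 those shares were 1.32% and 0.225%, and by the exact test 1.68% and 0.273%. The log2 fold changes lay above 0 for 17 genes, beside 49.2% of all genes, and below 0 for 18, with a median of -0.01 beside -0.0044 for all genes. Both controls are the libraries that also served the HOXA9 OFF comparison.

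A count of 0 does not show that the genes were unchanged, and the intervals say how large a change these libraries could have held. For 20 of the 35 genes the 95% interval of the change lay within 1.5-fold in either direction. That group includes Lamp1, from -0.34 to 0.49 on the log2 scale, Lamp2, from -0.29 to 0.30, Grn, from -0.35 to 0.45, and Ctsb, from -0.35 to 0.28. For Ctss the interval ran from -0.99 to 1.28, which leaves out the change seen in HOXA9 OFF. The widest were those of Ctsh, from -2.79 to 4.07, and Lgmn, from -2.10 to 2.51.

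In CAF-1 OFF, 4 genes had an unadjusted p under 0.05, and all 4 were lower than in control, beside 4.2% of all genes lower and 6.48% higher at that threshold. Smpd1 had a log2 fold change of -0.54 ± 0.18 (unadjusted p = 0.0205, FDR = 0.363), Gla of -0.40 ± 0.15 (FDR = 0.417), Manba of -0.30 ± 0.11 (FDR = 0.428) and Fuca1 of -0.32 ± 0.13 (FDR = 0.453). None passed the correction over all genes. In each of the 4, both CAF-1 OFF libraries lay below both controls. Gla had 69.0 and 60.1 CPM in control against 53.8 and 44.1 CPM, and Manba had 146 and 162 CPM against 119 and 132 CPM. Counting every gene with such separation, 8 of the 35 lay below both controls, beside 20% of all genes, with Ctsa, Neu1, Man2b1 and Mcoln1 as the others, and 1 lay above them, beside 20.1%. That gene was Galns, with 45.3 and 44.3 CPM in control and 50.4 and 51.4 CPM in CAF-1 OFF.

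Set directly against HOXA9 OFF, the CAF-1 OFF cells had lower lysosomal gene levels. Of the 35 genes, 25 were called lower and 0 higher, beside 12.6% lower and 9.56% higher among all genes tested. All 35 log2 fold changes lay below 0, beside 49.9% of all genes, with a median of -0.89. Ctsl and Lgmn turned direction here too, to 0.69 and 2.44 without HOXA9 OFF library 2 and to 0.03 and 0.07 without CAF-1 OFF library 2. For 33 genes both CAF-1 OFF libraries lay below both HOXA9 OFF libraries, beside 33.7% of all genes. The same HOXA9 OFF libraries entered here and above, so the 2 comparisons are not independent. They shared 24 called genes, 96% of each list. Ppt1 was called only against control and Smpd1 only in the direct comparison, at -0.80 ± 0.18 (FDR = 0.0181).

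Among the genes called, the largest direct differences were those of Ctss at -5.54 ± 0.41 (FDR = 0.000548), Psap at -2.20 ± 0.24 (FDR = 0.00159), Lipa at -2.19 ± 0.23 (FDR = 0.0015) and Man2b1 at -1.72 ± 0.14 (FDR = 0.000731). Ctsb at -1.61 ± 0.14 and Grn at -1.56 ± 0.17 followed. Of the 4 genes with a low unadjusted p in CAF-1 OFF, Fuca1 was called lower at -1.19 ± 0.13 and Smpd1 as given above, while Gla at -0.58 ± 0.15 (FDR = 0.0283) and Manba at -0.45 ± 0.11 (FDR = 0.0261) stayed under 1.5-fold. Without HOXA9 OFF library 2, the direct difference of Ctsd fell from -1.12 to -0.54 on the log2 scale. Ctsd lost its call there, together with Cd63, Ctsz, Smpd1 and Tfeb.

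More of the lysosomal genes were over 1.5-fold apart between libraries in HOXA9 OFF than in the other groups. Library 2 was the higher for 26 of the 35 genes in HOXA9 OFF, for 23 of 34 in control and for 15 of 34 in CAF-1 OFF. In HOXA9 OFF 8 genes were more than 1.5-fold apart, namely Ctsd, Ctsl, Ctss, Ctsz, Lgmn, Psap, Lipa and Npc1. In control 3 of 34 genes were that far apart, and in CAF-1 OFF 1 of 34, Tfeb. Those 8 include 5 of the 9 proteases and none of the glycosidases or sulfatases. The share of all genes that far apart is not given, so these counts have no background beside them. Over 13015 to 13099 genes, the chi-square per degree of freedom between libraries was 21.0 in HOXA9 OFF, 20.5 in control and 27.6 in CAF-1 OFF. The 10 monocyte and macrophage markers summed to 481 CPM in HOXA9 OFF library 1 and 685 CPM in library 2, with 3 of them lower in library 2, and their part in these differences was not tested.

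Promoter motifs were set beside the changes as a description. CACGTG occurred in 4 of 21 promoters of genes called higher in HOXA9 OFF (19%) and in 6 of 9 of genes not called (66.7%). Ctsa, Ctsd, Arsa and Lamp1 were the 4 called genes, and Ctsl, Lgmn, Gaa, Gla, Glb1 and Mcoln1 the uncalled. Ctss, Psap and Lipa, with the largest changes among those called, had no CACGTG in the window, which says only that these letters are absent from it.

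The other parts of the lysosomal pathway, given by lists of names, were read in the same comparison of HOXA9 OFF with control, where 13% of all genes were called higher and 8.97% lower. Of the TFEB relatives and the repressor Zkscan3, 3 of 4 were called higher. Tfec had 86.9 and 49.5 CPM in control and 217 and 162 CPM in HOXA9 OFF, a log2 fold change of 1.47 ± 0.27 (FDR = 0.00898). Tfe3 had 20.5 and 22.1 CPM in control and 43.2 and 49.6 CPM in HOXA9 OFF, a log2 fold change of 1.13 ± 0.13 (FDR = 0.00198). Mitf was called at 2.09 ± 0.29, from a low level of 2.04 and 1.86 CPM, and Zkscan3 was not, at 0.11 ± 0.11. All 3 calls held when any control or HOXA9 OFF library was left out.

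Of the V-ATPase subunits 8 of 18 tested were called higher and 0 lower. Atp6v1b2, a subunit of the pump's cytosolic domain, had 235 and 242 CPM in control, 212 and 233 CPM in CAF-1 OFF, and 499.9 and 589 CPM in HOXA9 OFF, a log2 fold change of 1.19 ± 0.12 (FDR = 0.00119). Tcirg1, a membrane-domain subunit, had a log2 fold change of 1.04 ± 0.18 (FDR = 0.00749). Of 13 genes that sort hydrolases by the mannose 6-phosphate tag, 1 was called higher and 2 lower. Nagpa, the uncovering enzyme, was called at 0.64 ± 0.10, and Gnptab, the precursor of the transferase that begins the tag, at -0.77 ± 0.16, with 107 and 80.5 CPM in control and 50.5 and 59.3 CPM in HOXA9 OFF. Igf2r, the cation-independent receptor for the tag, had 1.61 and 17.4 CPM in control, 3.69 and 9.22 CPM in CAF-1 OFF, and 0 and 0.182 CPM in HOXA9 OFF. Against a floor of 3 counts per library it was at least 58.1-fold lower in HOXA9 OFF than the control mean and at least 9.86-fold lower than control library 1, the lower of the controls, and the call was lost without control library 2 or either HOXA9 OFF library.

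Of 31 other lysosomal hydrolases tested, 12 were called higher and 1, Acp5, lower. Lyz1, a lysozyme, had 0.0786 and 0.406 CPM in control, 0.52 and 0.506 CPM in CAF-1 OFF, and 13.0 and 44.6 CPM in HOXA9 OFF, a log2 fold change of 7.01 ± 0.85 (FDR = 0.00218). That call held when any library was left out, at 5.84 without HOXA9 OFF library 2, 6.11 without control library 1, 7.64 without HOXA9 OFF library 1 and 8.40 without control library 2. Of 22 other membrane proteins, 10 were called higher and 0 lower. Cd68, a macrophage glycoprotein, was called at 2.45 ± 0.35 (FDR = 0.00386) and kept its call when any single control or HOXA9 OFF library was left out. Gpnmb was called at 5.38 ± 1.48 (FDR = 0.0338), but without HOXA9 OFF library 2 it stood at 1.52 (FDR = 0.102), and the call was also lost without either control library. Fewer of these 10 were called without HOXA9 OFF library 2 or without either control library, where fewer of all genes were called too.

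The cystatins Cstb and Cst3, inhibitors of cysteine cathepsins, were both called higher in HOXA9 OFF, at 1.64 ± 0.25 (FDR = 0.00483) and 1.05 ± 0.15 (FDR = 0.00359), of 3 cystatins tested. The third, Cst7, had 148 and 172 CPM in control and 112 and 104 CPM in HOXA9 OFF, a log2 fold change of -0.57 ± 0.21 that was not called (FDR = 0.0864), with both HOXA9 OFF libraries below both controls. Of 11 genes of the Ragulator, Rag and folliculin complexes, which tie the lysosome to mTORC1, 1 was called higher (Fnip1, 1.19 ± 0.13) and 1 lower (Rragb, -0.83 ± 0.19). Of 16 autophagy genes, 4 were called higher, among them Atg7 at 1.32 ± 0.12 and Atg9a at 0.92 ± 0.11. Fewer of them were called without HOXA9 OFF library 2 or without control library 1, where fewer of all genes were called too. In CAF-1 OFF against control, 0 of the 118 genes tested in these 8 lists were called by edgeR's quasi-likelihood test, beside 0.0241% of all genes higher and 0.00803% lower. At an unadjusted p under 0.05, 8 were higher and 3 lower, near the 6.48% and 4.2% of all genes.

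**Figure D4:**
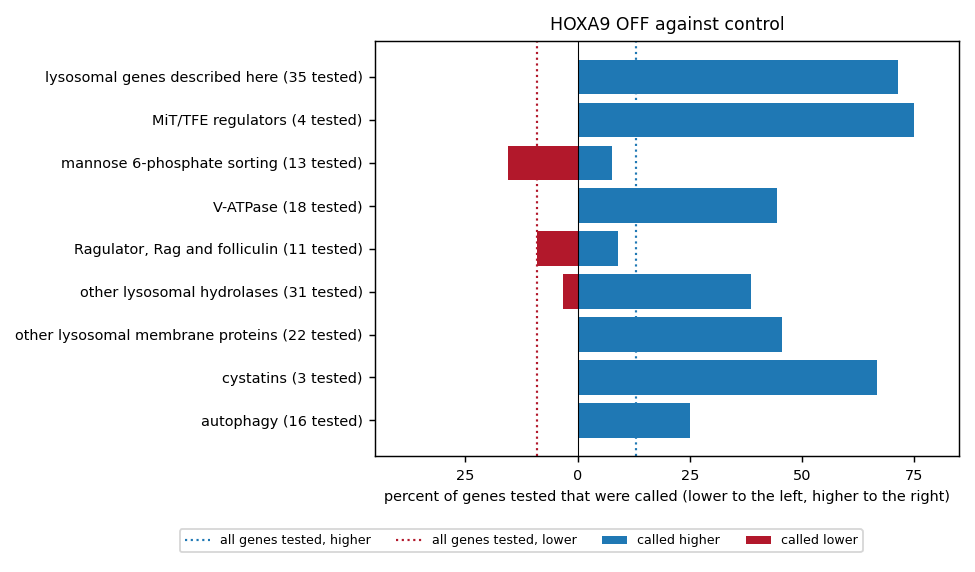
Percent of the genes tested in each list that were called higher (blue, right) or lower (red, left) in HOXA9 OFF against control, with dotted lines for all genes tested at 13% and 8.97%. The TFEB relatives, V-ATPase subunits, other hydrolases and other membrane proteins exceed the background of higher calls. So do the cystatins (2 of 3 genes) and autophagy genes (4 of 16), whereas the mannose 6-phosphate and Ragulator lists do not. The mannose 6-phosphate list exceeds the background of lower calls, at 15.4% (2 of 13), and the Ragulator list stands near it, at 9.09%.

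Some of these genes share sequence with neighbours in the GENCODE annotation of NCBIM37, and the strand setting of the counting is not given in the sources used here. Exons of Ctsa overlap those of Neurl2 and Pltp, those of Ctsb overlap Fdft1, those of Lamp1 overlap Grtp1, and those of Arsb overlap an antisense noncoding RNA. Ctsd, Ctsz, Arsa, Npc1 and Ppt1 also have an overlapping model. Reads from such stretches could not be assigned with certainty from these counts.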

How the data were processed

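Total RNA from 6 libraries was extracted and sequenced, and per the labels and the study's methods the authors aligned the reads with STAR to mouse mm9 and deposited raw HTSeq read counts per gene symbol. Annotation and strand setting are not given in the sources used here. Reads assigned to no gene, listed in 5 closing tallies, were left out. No column of any file was left unmapped.

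The analysis of counts used edgeR 4.0.16 under R 4.3.3. Genes were filtered with filterByExpr, libraries scaled with TMM, and one mean per group fitted over all 6 libraries with the quasi-likelihood test. A call required a change of at least 1.5-fold and FDR under 0.05 over 12460 genes. Alternatives were DESeq2 1.42.0, edgeR's exact test, other scalings, filters and thresholds, a replicate block, and leaving out each library. The fit was tested on simulated data. CPM used TMM-scaled library sizes, and CPM per kb the exon union of GENCODE vM1 (NCBIM37), where Tfeb is listed as Tcfeb. The SE of a log2 fold change was derived from the F statistic, and 95% intervals cover the spread modelled between libraries. Replicate libraries differed by more than counting noise (chi-square per degree of freedom 20.5 to 27.6).

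The genes, lists and tests were chosen with earlier results of these data known. Full values are given for the 12 largest changes among genes called in HOXA9 OFF, the 4 smallest p in CAF-1 OFF, the 6 largest direct differences among genes called, the highest and lowest level, and Lamp1, Lamp2, Ctsd and Tfeb, and in the pathway lists for at most 2 genes per direction with a mean of at least 5 CPM. Mitf was named by rule, whatever its value. Zkscan3, Acp5, Cst7, and the other genes given by library (Ctsl, Lgmn, Gusb, Gaa, Galns, Mcoln1), were named after their values were seen. Promoter windows came from RefSeq (GRCm38.p6). Protein sequences were not analysed here. Some items named by these rules are not reported here.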

Additional observations from a re-analysis of the deposited data

How the results depend on the processing

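Of the lysosomal genes, 25 were called in HOXA9 OFF against control, 25 in the direct comparison and 0 in CAF-1 OFF against control. When each library was left out in turn, the median log2 fold change lay between 0.80 and 0.96 in HOXA9 OFF against control. It lay between -0.99 and -0.76 in the direct comparison and between -0.08 and 0.02 in CAF-1 OFF against control. Some called genes lost their call in these fits. In those fits the lone library of a group is assumed to vary like the others. With DESeq2 size factors, DESeq2, the exact test, the filters or only the 4 libraries compared, the HOXA9 OFF count was 25 or 26, and with library size alone it was 23 (Ppt1 and Scarb2 lost) and the direct count 22. Of all 12460 genes, 1622 were called higher in HOXA9 OFF against control in the main fit and 1434 with library size alone. In the direct comparison 1564 were called lower in the main fit and 1334 with library size alone. Requiring 2-fold and FDR under 0.01 gave 10 and 11 lysosomal genes, and the share of all genes at these thresholds is not given. Same-numbered libraries are not stated to be paired, and their deviations from the group means correlated at -0.178 (control and CAF-1 OFF), 0.456 (control and HOXA9 OFF) and 0.0329 (CAF-1 OFF and HOXA9 OFF) over 12460 genes. The replicate block gave 25 called genes in HOXA9 OFF against control, 0 in CAF-1 OFF and 26 in the direct comparison, where Gla was gained. A crossed replicate block, chosen after seeing the data, gave 25, 0 and 25. Gene lists without HOXA9 OFF library 2 were likewise added after seeing the data.

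The direction of 22 of the 35 genes, all uncalled, in CAF-1 OFF against control turned when a library was left out. For those given in full, the log2 ranges were -0.39 to 0.79 for Ctss, -0.159 to 0.0727 for Psap, -0.26 to 0.0077 for Lipa, -0.12 to 0.21 for Grn, -0.0845 to 0.258 for Lamp1, -0.0949 to 0.0296 for Ctsb, -0.231 to 0.0935 for Npc1, -0.26 to 0.54 for Tfeb, -0.0733 to 0.247 for Ctsd, -0.0899 to 0.109 for Lamp2, -0.23 to 0.74 for Ctsl, -0.48 to 1.51 for Lgmn and -4.24 to 4.80 for Ctsh. Lamp2 also turned to -1.5e-05 with library size alone and to -0.0073 without an expression filter. The causes were not tested. Counts were low for Ctsh and for Ctss in control.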
